A study of Saccharomyces cerevisiae with 16 samples.

Results

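The genes described here are 53 listed genes of the ATP-dependent chromatin remodellers of budding yeast (Saccharomyces cerevisiae): those of SWI/SNF, RSC, INO80 and SWR1, together with the ISWI enzymes and their partners, Chd1 and Fun30. They were chosen by symbol, with earlier results of these data known. The array measured 52 of them among 5315 named genes; RSC30 was not analysed here. Each remodeller is built around an ATPase of the Snf2 family, the family to which Mot1 itself belongs. SWI/SNF and RSC slide and eject nucleosomes, and RSC keeps many promoters free of them. INO80 repositions nucleosomes and SWR1 exchanges the histone H2A for the variant H2A.Z, while the ISWI enzymes and Chd1 space nucleosomes along genes. Mot1 acts instead on the TATA-binding protein, which it removes from DNA.

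Newly made RNA was compared between Mot1-aa, whose MOT1 gene carries an FRB, yEGFP and 3V5 tag, and its parent WT-aa, which has no FRB tag. Both are MATalpha strains with the tor1-1 allele, an fpr1 deletion and FKBP12 fused to the ribosomal protein Rpl13A, so that rapamycin draws FRB-tagged protein out of the nucleus without acting through Tor1. Mot1-aa and WT-aa were each sampled at 0 min (no rapamycin) and at 10, 20 and 30 min after 7.5 µM rapamycin, in medium with 2% glucose, with 5 mM 4-thiouracil present for the 6 min before harvest. Each of the 8 groups held 2 arrays from independent cultures, and every array set the thiouracil-labelled RNA of a sample against a common pool of labelled WT-aa RNA made without rapamycin. The sample was labelled with Cy3 in culture 1 and with Cy5 in culture 2, so culture number and dye cannot be told apart. The sources used here do not say whether 1 culture supplied all times of a strain. The depletion is that of a tagged protein in whole cultures, and fewer transcribing cells cannot be told apart from less new RNA per cell.

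Values are log2(sample/reference) of a gene, with culture 1 before culture 2 wherever a pair is given. The typical gene of every array was set to 0 by the normalization, so a change here means one against the bulk of the genes measured. The median remodeller gene lay 17.3 to 50.1 times over its local background, with the lowest value on Mot1-aa 0 min culture 1, the baseline array of that strain in culture 1. SWC3 and SWC7, subunits of SWR1, lay close to background (1.53 and 1.61 times on their dimmest arrays), and no remodeller spot was saturated. The probe of MOT1 gave -2.31 to 0.61 in the Mot1-aa arrays and -0.09 to 0.29 in the WT-aa arrays. In Mot1-aa it had -0.18 and -1.31 at 0 min, and 0.40 and -2.31 at 10 min. It had -0.62 and -0.18 at 20 min, and 0.61 and -0.09 at 30 min, so the cultures disagreed. It does not measure the depletion, which displaces Mot1 protein and keeps its gene intact; FPR1 was not analysed here.

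The depletion effect takes the move of Mot1-aa away from its 0 min level and subtracts that of WT-aa. It asks for which of these genes labelled RNA changed differently after rapamycin in Mot1-aa than in WT-aa. The arrays did not measure whether Mot1 had left the nucleus. Of the 52 remodeller genes, 8 passed at 30 min, 3 higher and 5 lower in Mot1-aa. The 3 that rose were SNF11 of SWI/SNF, IES6 of INO80 and ITC1, the partner of Isw2. The 5 that fell were RSC1 and RSC2, the alternative bromodomain subunits of RSC; ARP7, an actin-related subunit shared by RSC and SWI/SNF; IES5 of INO80; and RVB1, an AAA+ ATPase shared by INO80 and SWR1. Their changes ranged from -0.73 (IES5) to 0.65 (ITC1) on the log2 scale. No gene of the 8 remodelling ATPases passed.

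A gene was called by limma at an adjusted p under 0.05, with Benjamini-Hochberg adjustment over all 5315 genes. At 30 min, 15.4% of the remodeller genes were called, against 21.1% of all genes. Of all genes 13.6% were called higher and 7.51% lower, beside 3 and 5 of the 52. The remodeller genes were thus called no more often than the genes of the array at large. At 20 min only SNF11 (higher) and IES5 (lower) were called, 3.85% against 8.09% of all genes. At 10 min limma called no remodeller gene and 0% of all genes, and 1 remodeller gene had an unadjusted p under 0.05; the effects of culture 1 and culture 2 were unrelated at that time (r = -0.119 across genes, which are not independent replicates). The 3 effects share the 0 min arrays. No remodeller gene and 0% of all genes differed by limma between the effects at 30 and 20 min, where 4 remodeller genes had an unadjusted p under 0.05. When single arrays were left out, the 30 min count became 5 without Mot1-aa 0 min culture 1, 4 or 5 without either array of Mot1-aa or of WT-aa at 30 min, and 18 without either Mot1-aa 10 min array. Without the dye term in the model only RSC2 was called, and under external-control scaling none was. The shares of all genes called under these alternatives, and of all genes at an unadjusted p under 0.05, are not given here. These counts are therefore not read against the array at large.

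**Figure D1:**
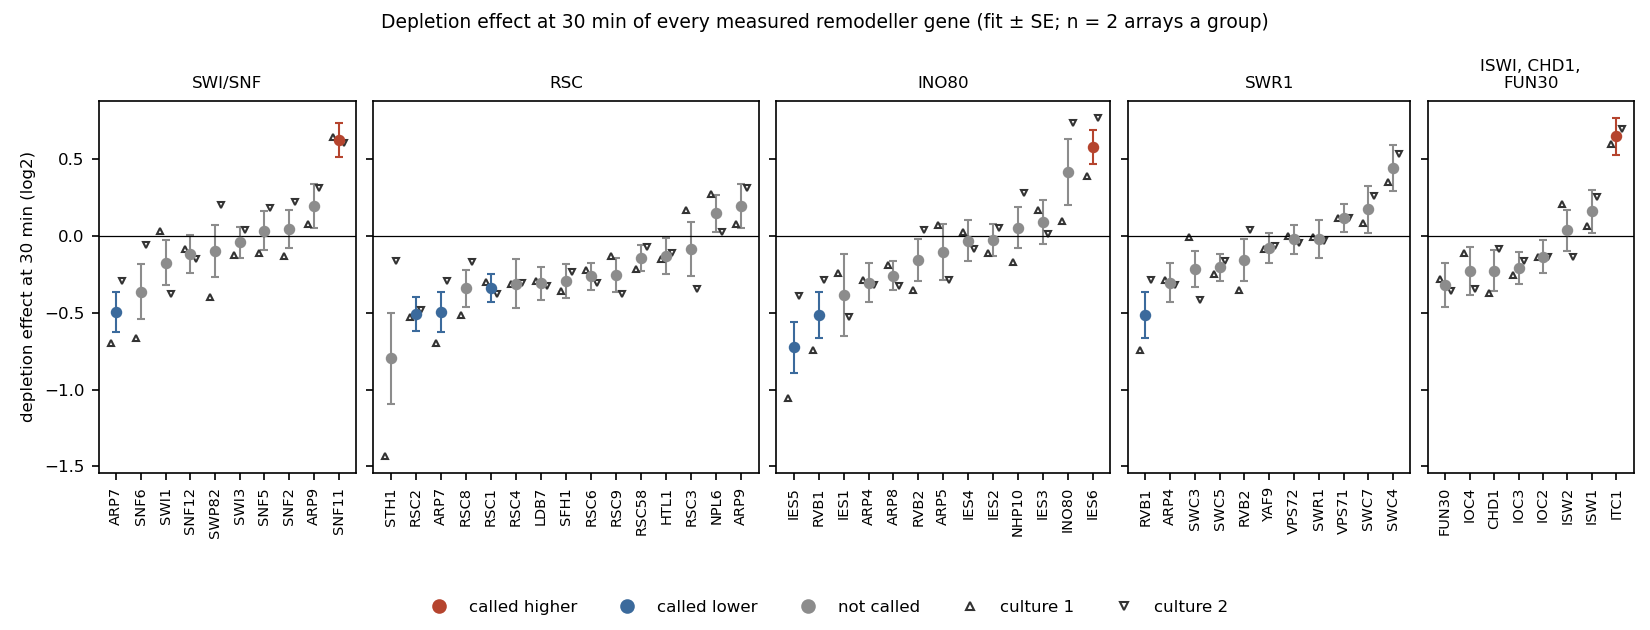
Depletion effect at 30 min (log2, vertical axis) of the 52 measured remodeller genes, in 5 panels by complex, with subunits shared by complexes drawn in each. Filled points are fitted values with their SE, red where called higher, blue where called lower and grey where not called; open triangles are the values within culture 1 (up) and culture 2 (down). The 3 genes called higher lie between 0.58 and 0.65 and the 5 called lower between -0.73 and -0.34.

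Among the SWI/SNF genes, SNF11 (YDR073W), which encodes a small subunit found in SWI/SNF and not in RSC, stood apart from its neighbours. In Mot1-aa it had 0.37 and 0.11 at 0 min, 0.73 and 0.49 at 10 min, 0.95 and 0.78 at 20 min, and 0.98 and 0.89 at 30 min. The WT-aa arrays had 0.18 and -0.24 at 0 min, 0.26 and 0.0002 at 10 min, 0.23 and 0.05 at 20 min, and 0.15 and -0.06 at 30 min. The Mot1-aa values lay above every WT-aa value from 10 min on, while at 0 min the strains overlapped. Its depletion effect was 0.46 at 20 min (SE 0.11, adjusted p = 0.0308 by limma) and 0.62 at 30 min (SE 0.11, adjusted p = 0.00351), a 1.54-fold higher ratio. Within cultures the 30 min effect was 0.64 in culture 1 and 0.60 in culture 2, and it passed whichever of the 16 arrays was left out. At 20 min it passed in 5 of those 16 cases.

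ARP7 (YPR034W) and ARP9 (YMR033W) encode the actin-related pair that SWI/SNF and RSC share, and only ARP7 was called. ARP7 had 0.28 and -0.08 at 0 min, -0.04 and -0.01 at 10 min, -0.17 and -0.28 at 20 min, and -0.24 and -0.38 at 30 min in Mot1-aa. In WT-aa its values were -0.01 and 0.04 at 0 min, 0.18 and 0.01 at 10 min, 0.19 and 0.04 at 20 min, and 0.16 and 0.05 at 30 min. Both Mot1-aa arrays at 20 min and both at 30 min lay below all WT-aa arrays, and the 0 min arrays overlapped. By limma the 30 min effect came to -0.50 (SE 0.13, adjusted p = 0.0226), with -0.70 in culture 1 and -0.30 in culture 2. It passed in 10 of the 16 fits that left out 1 array, and failed without culture 1 of either strain at 0 min or any array at 30 min.

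ARP9 had -0.10 and 0.01 at 0 min, 0.14 and -0.13 at 10 min, 0.01 and 0.06 at 20 min, and 0.06 and 0.18 at 30 min in Mot1-aa. It had -0.05 and 0.01 at 0 min, 0.07 and 0.14 at 10 min, -0.04 and 0.10 at 20 min, and 0.04 and -0.14 at 30 min in WT-aa. At 30 min the strains did not overlap, but their means lay no further apart than the cultures of WT-aa. For ARP9 limma gave a 30 min effect of 0.19 (SE 0.14, adjusted p = 0.359). A difference between ARP7 and ARP9 was not tested. The other 6 SWI/SNF subunit genes (SWI1, SWI3, SNF5, SNF6, SNF12 and SWP82) were not called, with effects between -0.36 and 0.03.

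RSC held 3 of the 5 genes that fell, counting ARP7. It is also the longest list, with 15 measured genes, of which 20% were called against 21.1% of all genes. RSC2 (YLR357W) and RSC1 (YGR056W) encode paralogous bromodomain proteins that mark alternative forms of the complex. RSC2 had 0.19 and 0.04 at 0 min, 0.05 and 0.23 at 10 min, 0.02 and -0.08 at 20 min, and -0.15 and -0.26 at 30 min in Mot1-aa. In WT-aa it had 0.09 and 0.08 at 0 min, 0.25 and 0.22 at 10 min, 0.17 and 0.19 at 20 min, and 0.28 and 0.27 at 30 min. The Mot1-aa values were lower at each time after 10 min, while every WT-aa value after 0 min was above the WT-aa values at 0 min, and at 20 and 30 min all Mot1-aa values lay below all WT-aa values. By limma the 30 min effect came to -0.51 (SE 0.11, adjusted p = 0.0101), a 1.42-fold lower ratio. It was nearly equal in both cultures (-0.53 in culture 1 and -0.48 in culture 2) and passed whichever array was left out.

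RSC1 showed a smaller effect of the same sign. Its Mot1-aa values were 0.09 and 0.13 at 0 min, 0.19 and 0.20 at 10 min, 0.08 and -0.04 at 20 min, and -0.07 and -0.16 at 30 min. Its WT-aa values were 0.12 and 0.11 at 0 min, 0.26 and 0.19 at 10 min, 0.29 and 0.16 at 20 min, and 0.26 and 0.20 at 30 min. At 0 and 10 min the strains lay side by side, and at 20 and 30 min the Mot1-aa arrays were the lower ones. For RSC1 limma gave -0.34 (SE 0.09, adjusted p = 0.0253), with -0.30 in culture 1 and -0.38 in culture 2, and it passed in 9 of the 16 fits that left out 1 array. It was also lost with the authors' normalized ratios (-0.26, adjusted p = 0.064 by limma) and when only the 8 arrays of the contrast were fitted. It failed without Mot1-aa 0 min culture 2, either WT-aa 0 min array or any array at 30 min.

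STH1 (YIL126W), the gene of the essential RSC ATPase, had the lowest fitted effect of all remodeller genes without passing. In Mot1-aa it had 0.97 and -0.11 at 0 min, 0.26 and -0.08 at 10 min, -0.16 and -0.25 at 20 min, and -0.22 and -0.69 at 30 min. WT-aa arrays of STH1 read 0.12 and 0.24 at 0 min, 0.49 and -0.01 at 10 min, 0.31 and 0.02 at 20 min, and 0.36 and -0.18 at 30 min. The Mot1-aa 0 min arrays differed from each other by more than the group means did over time, and the higher of them is the dimmest array of the series. For STH1 limma gave a 30 min effect of -0.80 (SE 0.30, adjusted p = 0.082), but -1.43 in culture 1 and -0.17 in culture 2. Without Mot1-aa 0 min culture 1 the effect was -0.41 (adjusted p = 0.292 by limma), and then IES5 was lowest at -0.60. The remaining 10 RSC genes were not called, with effects between -0.34 and 0.14.

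In INO80, IES6 rose and IES5 fell. IES6 (YEL044W) encodes the partner of Arp5 in the module that couples ATP hydrolysis to nucleosome sliding. It had 0.27 and -0.10 at 0 min, 0.25 and -0.03 at 10 min, 0.48 and 0.35 at 20 min, and 0.51 and 0.37 at 30 min in Mot1-aa. Its values in WT-aa were 0.09 and -0.01 at 0 min, 0.04 and -0.15 at 10 min, 0.03 and -0.07 at 20 min, and -0.07 and -0.31 at 30 min. All Mot1-aa arrays at 20 and 30 min were above all WT-aa arrays. The effect was 0.39 at 20 min (adjusted p = 0.0567 by limma, not called) and 0.58 at 30 min (SE 0.11, adjusted p = 0.00526), with 0.39 in culture 1 and 0.77 in culture 2. The 30 min call held whichever array was left out.

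IES5 (YER092W), which encodes a subunit of the Nhp10 module of INO80, had the largest fall among the called remodeller genes. In Mot1-aa it had 0.11 and -0.37 at 0 min, -0.32 and -0.77 at 10 min, -0.73 and -0.88 at 20 min, and -0.93 and -1.02 at 30 min. The WT-aa arrays gave -0.09 and -0.28 at 0 min, -0.22 and -0.34 at 10 min, -0.11 and -0.15 at 20 min, and -0.08 and -0.54 at 30 min. From 20 min on the Mot1-aa arrays were below every WT-aa array. The effect was already -0.73 at 20 min (SE 0.17, adjusted p = 0.025 by limma) and was -0.73 at 30 min (SE 0.17, adjusted p = 0.0129), a 1.65-fold lower ratio. Cultures differed in its size, with -1.06 in culture 1 and -0.40 in culture 2. The 30 min call was lost when culture 1 was left out of either strain at 30 min or of Mot1-aa at 0 min.

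RVB1 (YDR190C) encodes one of the paired AAA+ ATPases that scaffold INO80 and SWR1 and also work outside them. It had 0.10 and 0.01 at 0 min, -0.12 and -0.41 at 10 min, -0.48 and -0.39 at 20 min, and -0.66 and -0.53 at 30 min in Mot1-aa. In WT-aa it had -0.09 and 0.11 at 0 min, -0.07 and 0.03 at 10 min, -0.10 and 0.03 at 20 min, and -0.11 and -0.13 at 30 min. From 10 min on the Mot1-aa arrays lay below all arrays of WT-aa at the same time. By limma the 30 min effect came to -0.52 (SE 0.15, adjusted p = 0.0348), with -0.74 in culture 1 and -0.29 in culture 2. It was the least secure of the 8 calls, passing in 4 of the 16 fits without 1 array (adjusted p 0.00321 to 0.133). Those 4 left out culture 2 of either strain at 0 min or a Mot1-aa 10 min array. The authors' normalized ratios gave -0.34 for RVB1 (adjusted p = 0.172 by limma). Its partner RVB2 and the other 8 INO80 genes not described here or among the ATPases were not called, with effects between -0.39 and 0.09.

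SWR1 had no called gene besides the shared RVB1. SWC4 (YGR002C), whose product SWR1 shares with the histone acetyltransferase NuA4, had the highest fitted effect of the SWR1 genes. In Mot1-aa it had 0.02 and 0.13 at 0 min, 0.27 and 0.04 at 10 min, 0.20 and 0.42 at 20 min, and 0.47 and 0.48 at 30 min. In WT-aa it had -0.07 and 0.24 at 0 min, 0.09 and 0.13 at 10 min, 0.02 and 0.16 at 20 min, and 0.03 and 0.06 at 30 min. The 30 min Mot1-aa arrays were above every WT-aa array. The effect of 0.44 (SE 0.15) did not pass (adjusted p = 0.0636 by limma); the direct difference between the strains at 30 min was 0.43 and did (adjusted p = 0.00747). The other 8 SWR1 subunit genes ranged between -0.31 and 0.17, none called.

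ITC1 (YGL133W), which encodes the large partner of the ISWI enzyme Isw2, had the highest effect of all 52 genes. Its Mot1-aa values were 0.28 and 0.02 at 0 min, 0.30 and 0.03 at 10 min, 0.57 and 0.49 at 20 min, and 1.04 and 0.64 at 30 min. Its WT-aa values were -0.06 and -0.12 at 0 min, 0.09 and -0.13 at 10 min, 0.02 and -0.14 at 20 min, and 0.11 and -0.19 at 30 min. Both Mot1-aa arrays lay above both WT-aa arrays already at 0 min, the only remodeller gene of which this was so; the strains overlapped at 10 min and were apart at 20 and 30 min. The effect was 0.36 at 20 min (adjusted p = 0.105 by limma, not called) and 0.65 at 30 min (SE 0.12, adjusted p = 0.00453), a 1.56-fold higher ratio, with 0.60 in culture 1 and 0.69 in culture 2. It passed whichever array was left out. The genes of the Isw1 partners, IOC2, IOC3 and IOC4, were not called, with effects between -0.23 and -0.14.

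**Figure D2:**
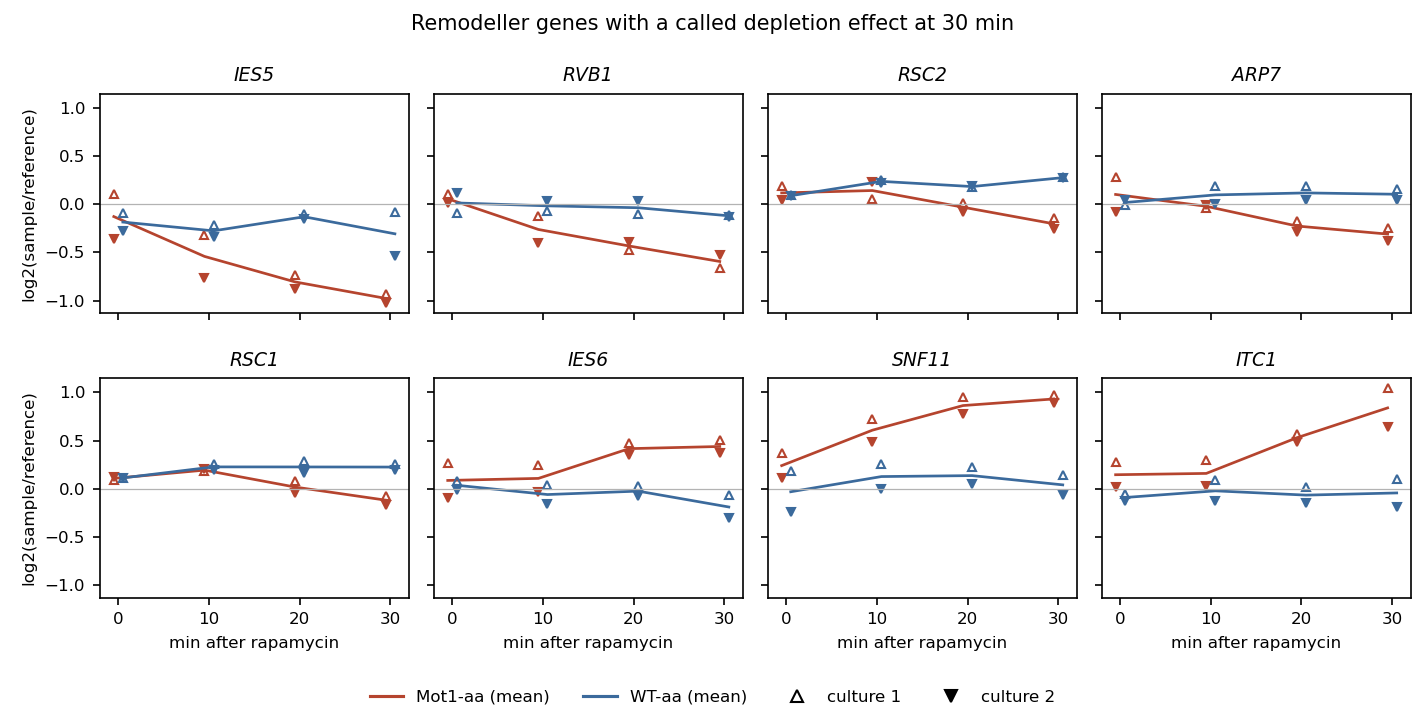
Log2(sample/reference) of the 8 called remodeller genes against minutes after rapamycin, for Mot1-aa (red) and WT-aa (blue); triangles are single arrays (open for culture 1, filled for culture 2) and lines are group means of 2 arrays. At 0 min the strains overlap for 7 of the 8 genes, ITC1 being the exception, and at 30 min they are apart for all 8; there SNF11 reaches 0.98 and 0.89 and IES5 -0.93 and -1.02 in Mot1-aa.

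None of the 8 ATPase genes was called in the depletion effect at 30 min by limma, against 21.1% of all genes. An unadjusted p under 0.05 was reached by 2, and the share of all genes at that cut is not given here. INO80 (YGL150C), the catalytic subunit of its complex, had 0.32 and -0.04 at 0 min, 0.32 and -0.40 at 10 min, 0.21 and 0.11 at 20 min, and 0.52 and 0.23 at 30 min in Mot1-aa. It had 0.02 and 0.09 at 0 min, 0.03 and -0.20 at 10 min, 0.08 and -0.02 at 20 min, and 0.12 and -0.37 at 30 min in WT-aa. The strains overlapped at 0 and 10 min and were apart at 20 and 30 min, with a 30 min effect of 0.41 (SE 0.22, adjusted p = 0.199 by limma) that was 0.10 in culture 1 and 0.73 in culture 2. By limma the direct difference between the strains at 30 min was 0.50 and passed (adjusted p = 0.0199).

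SNF2 (YOR290C), the SWI/SNF ATPase gene, had 0.14 and -0.02 at 0 min, 0.03 and 0.04 at 10 min, -0.05 and 0.13 at 20 min, and 0.15 and 0.08 at 30 min in Mot1-aa. For WT-aa they were -0.09 and 0.07 at 0 min, 0.06 and 0.12 at 10 min, 0.12 and 0.18 at 20 min, and 0.05 and -0.05 at 30 min. These are differences of the size seen between cultures, and the effect at 30 min was 0.04 (95% interval -0.23 to 0.32). SWR1 (YDR334W) had the 30 min effect nearest to 0 among the 8 ATPase genes. It had 0.01 and 0.03 at 0 min, 0.11 and -0.18 at 10 min, -0.09 and -0.01 at 20 min, and 0.09 and -0.05 at 30 min in Mot1-aa. Its WT-aa values were 0.02 and 0.05 at 0 min, 0.09 and 0.11 at 10 min, 0.09 and 0.01 at 20 min, and 0.10 and 0.00 at 30 min, which overlapped those of Mot1-aa at 0, 10 and 30 min. The effect at 30 min was -0.02 (95% interval -0.30 to 0.25).

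ISW1 (YBR245C), an ISWI ATPase gene, had 0.06 and 0.11 at 0 min, 0.00 and -0.08 at 10 min, 0.01 and 0.10 at 20 min, and 0.14 and 0.05 at 30 min in Mot1-aa. In WT-aa it had -0.11 and 0.27 at 0 min, -0.07 and 0.01 at 10 min, -0.05 and 0.08 at 20 min, and -0.08 and -0.04 at 30 min, with an effect of 0.16 at 30 min (95% interval -0.15 to 0.47). ISW1 did not separate by strain before 30 min. ISW2 (YOR304W), whose product pairs with Itc1, had -0.02 and -0.03 at 0 min, 0.01 and 0.19 at 10 min, 0.22 and 0.05 at 20 min, and 0.31 and 0.12 at 30 min in Mot1-aa. Its WT-aa values of 0.12 and -0.14 at 0 min, 0.11 and 0.05 at 10 min, 0.08 and -0.07 at 20 min, and 0.25 and 0.15 at 30 min overlapped the Mot1-aa values at every time. The ISW2 effect at 30 min was 0.03 (95% interval -0.26 to 0.33).

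CHD1 (YER164W), the gene of a chromodomain remodeller that acts on transcribed genes, had 0.15 and 0.25 at 0 min, 0.13 and 0.11 at 10 min, -0.20 and 0.07 at 20 min, and -0.23 and -0.03 at 30 min in Mot1-aa. WT-aa arrays had -0.04 and 0.36 at 0 min, 0.17 and 0.23 at 10 min, 0.08 and 0.15 at 20 min, and -0.04 and 0.17 at 30 min. The strains overlapped at 30 min, where the effect was -0.23 (95% interval -0.53 to 0.07), and 0.07 under external-control scaling. FUN30 (YAL019W), the gene of a remodeller known from DNA end resection and silencing, had 0.26 and 0.02 at 0 min, -0.01 and 0.13 at 10 min, 0.16 and -0.15 at 20 min, and 0.08 and -0.26 at 30 min in Mot1-aa. Its WT-aa values were 0.10 and -0.11 at 0 min, 0.13 and -0.07 at 10 min, 0.15 and -0.06 at 20 min, and 0.20 and -0.02 at 30 min. Its arrays overlapped at 30 min, and the effect of -0.32 (SE 0.14, adjusted p = 0.132 by limma) did not pass. Under external-control scaling it was 0.0035. That scaling put the median of all genes at 0.27, and relative to this median CHD1 lay at -0.20 and FUN30 at -0.27.

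**Figure D3:**
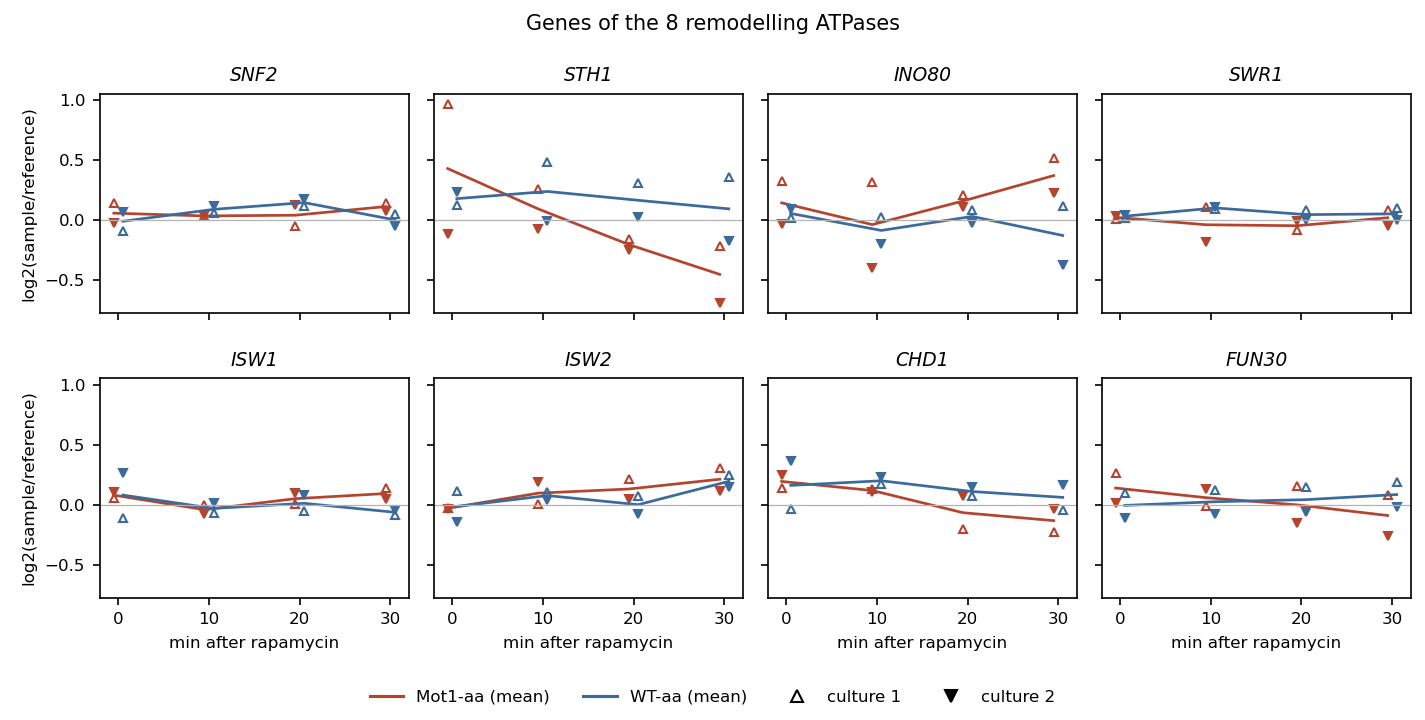
Log2(sample/reference) of the 8 remodelling ATPase genes against minutes after rapamycin, for Mot1-aa (red) and WT-aa (blue); triangles are single arrays (open for culture 1, filled for culture 2) and lines are group means of 2 arrays. STH1 shows the widest spread, from 0.97 to -0.69 in Mot1-aa, while SNF2 stays between -0.09 and 0.18 over all 16 arrays.

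Set side by side at 30 min, the RSC genes lay lowest. Of 15 measured RSC genes, 13 had an effect below 0, with a median of -0.30, 3 called lower and 0 called higher by limma. In total 20% of the RSC genes were called, against 21.1% of all genes (7.51% lower and 13.6% higher). The median of all 5315 genes was 0.01, with 49.1% below 0. SWI/SNF had a median of -0.07 (6 of 10 below 0), INO80 -0.11 (9 of 13), SWR1 -0.08 (8 of 11) and the ISWI, Chd1 and Fun30 genes -0.17 (5 of 8). Over all 52 genes the median was -0.14 and 37 lay below 0.

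The subunit genes ARP4, ARP7, ARP9, RVB1 and RVB2 are counted in more than 1 complex. Without them RSC kept a median of -0.30, with 12 of 13 genes below 0, while INO80 moved to -0.03 (6 of 10) and SWR1 to -0.02 (5 of 8). The RSC median was -0.10 at 10 min, -0.20 at 20 min and -0.30 at 30 min, from effects that share the 0 min arrays. At 10 min the SWI/SNF median was -0.10 as well, so the RSC genes did not stand apart at that time. No test was made of these medians or of a difference between complexes, and genes of a complex are not replicates. The RSC median at 30 min was -0.27 without Mot1-aa 0 min culture 1 and -0.25 from the authors' normalized ratios. The medians nearer to 0 moved more in proportion: SWI/SNF was at -0.0094 without that array, and the authors' ratios gave -0.03 for SWI/SNF, -0.014 for INO80 and -0.0067 for SWR1. Under external-control scaling the RSC median at 30 min was 0.01, where the median of all genes was 0.27. The RSC genes were thus lower relative to the other genes of the arrays, and their absolute change was not measurable.

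**Figure D4:**
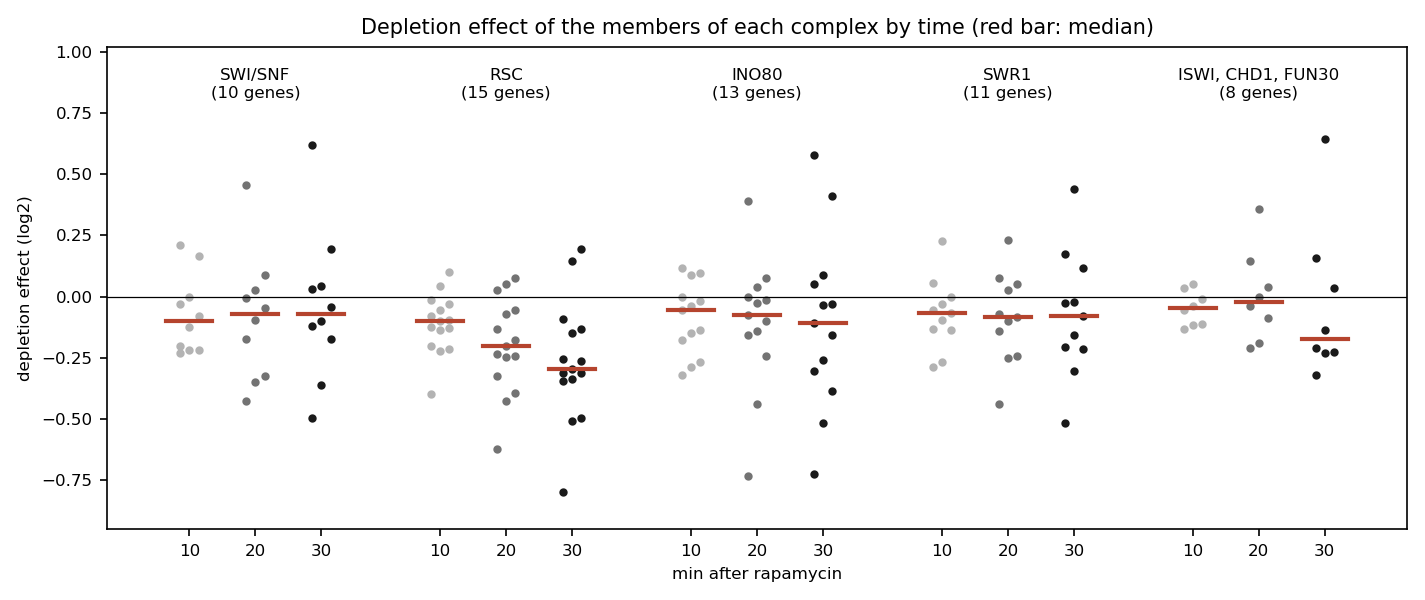
Depletion effect (log2, vertical axis) of each measured gene of the 5 groups of complexes at 10, 20 and 30 min (light to dark grey); red bars are medians. The RSC median is -0.10, -0.20 and -0.30 at the 3 times, and the SWI/SNF, INO80 and SWR1 medians lie between -0.11 and -0.06.

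Each strain was also compared with its own 0 min. At 30 min 17 of the 52 remodeller genes were called in Mot1-aa (32.7%, against 41.9% of all genes), 4 higher and 13 lower. Of all genes 22.9% were called higher and 19% lower. Besides SNF11, IES6 and ITC1, SWC4 rose by 0.40 (SE 0.11, adjusted p = 0.0122 by limma). The falls took in 7 of the 15 RSC genes, which were STH1, RSC1, RSC2, RSC6, RSC8, LDB7 and ARP7. RSC8, whose product is a core RSC subunit related to Swi3, changed by -0.35 (SE 0.08, adjusted p = 0.00674 by limma). LDB7, whose product belongs to the same RSC module as Rsc3, changed by -0.36 (SE 0.08, adjusted p = 0.00372 by limma). The other falls were SNF6, IES5, ARP4, SWC5, RVB1 and CHD1. SWC4, SNF6 and ARP4 lost their calls when Mot1-aa 0 min culture 1 was left out, at 0.39, -0.36 and -0.34. Among the ATPase genes STH1 changed by -0.88 (SE 0.21, adjusted p = 0.00697 by limma) and CHD1 by -0.33 (SE 0.10, adjusted p = 0.0182). Without Mot1-aa 0 min culture 1, the array with the 0.97 of STH1, only RSC1 and LDB7 of those 7 RSC genes were called; STH1 was then at -0.49 (adjusted p = 0.0758 by limma), and CHD1 was not called.

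At 20 min 8 remodeller genes were called in Mot1-aa against its 0 min (15.4%, against 23.9% of all genes), 3 higher (SNF11, IES6, ITC1) and 5 lower (RSC8, IES5, ARP7, SWC5, RVB1). At 10 min SNF11 alone was called, by 0.37 (SE 0.08, adjusted p = 0.0281 by limma), against 3.46% of all genes. These comparisons share the Mot1-aa 0 min arrays. The counts that follow, with arrays left out, are given without the share of all genes called. Without culture 1 of that group the counts were 8 at 30 min, 4 at 20 min and 0 at 10 min. Without either Mot1-aa 30 min array the 30 min count was 11.

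In WT-aa limma called no remodeller gene at 10, 20 or 30 min, against 0.414%, 0.113% and 0.395% of all genes. At an unadjusted p under 0.05 the counts were 1, 0 and 5 of 52. The share of all genes at that cut is not given here, nor for the strains at 0 min. These unadjusted counts are thus not read as an excess. Between Mot1-aa and WT-aa at 0 min limma called none, against 2.69% of all genes, with 7 at an unadjusted p under 0.05 and 5 called when either Mot1-aa 10 min array was left out.

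The direct difference between Mot1-aa and WT-aa at 30 min, which uses no 0 min array, called 21 remodeller genes (40.4%, against 49.1% of all genes), 6 higher and 15 lower in Mot1-aa. The 8 genes of the depletion effect were among them with unchanged sign. Both comparisons use the same 30 min arrays and the same estimate of the spread, so this was not an independent check. The further genes called higher were INO80, IES3 and SWC4. Of all genes 24.9% were called higher and 24.3% lower. RSC again held the most genes called lower, 8 of 15, and none higher. LDB7 had the largest RSC difference, -0.60 (SE 0.08, adjusted p = 0.000118 by limma). At 30 min both Mot1-aa arrays lay above both WT-aa arrays for 11 of the 52 genes and below both for 23, against 33.5% above and 35.9% below over all genes; at 0 min the counts were 1 and 4, against 14.2% and 15.3%.

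Other Snf2-family ATPases and further subunits served as the surrounding pathway. Of 9 other Snf2-family ATPase genes, MOT1 included, 1 was called in the depletion effect at 30 min (11.1%, against 21.1% of all genes). This was RAD16 (YBR114W), the gene of a nucleotide excision repair ATPase, which rose. It had -0.03 and 0.14 at 0 min, 0.21 and 0.34 at 10 min, 0.24 and 0.51 at 20 min, and 0.38 and 0.53 at 30 min in Mot1-aa. It had -0.14 and 0.04 at 0 min, 0.00 and 0.14 at 10 min, -0.06 and -0.02 at 20 min, and -0.12 and 0.10 at 30 min in WT-aa. The Mot1-aa arrays were above the WT-aa arrays of the same time from 10 min on, with an effect of 0.36 at 30 min (SE 0.09, adjusted p = 0.0209 by limma). Of 10 measured genes of further subunits and partners, such as ACT1, ARP6, TAF14 and HTZ1, limma called none at 30 min, beside the same 21.1%. An unadjusted p under 0.05 was reached by 2, a cut at which the share of all genes is not given here. NHP6A was not analysed here.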

How the data were processed

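The deposited scanner tables hold intensity values, which per the file headers give, for both channels, the brightness of every spot and its background before any subtraction. The authors' series table holds a log2 ratio for each spot, Cy5 over Cy3; its normalization, the scanner and the software are not given in the sources used here. That table was used as an alternative: per array its median was -0.0071 to 0.0216, and its r with the scanner ratios over spots was 0.796 to 0.978. The labelled reference channel was the more alike between arrays in both orientations (mean r 0.993 against 0.979 for the sample channel in culture 1, and 0.997 against 0.985 in culture 2), as the dye labels state.

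With limma 3.58.1 in R 4.3.3, intensities were background-corrected (normexp, offset 50) and normalized by loess over the gene spots of each array. Ratios were turned to log2(sample/reference), duplicate spots were averaged, and 5326 named probes gave 5315 genes, by the mean where a gene had 2 probes. One linear model over all 16 arrays held the 8 groups plus dye orientation, which equals culture number here, leaving 7 residual degrees of freedom (prior 3.54). The labels do not pair cultures of different strains, though arrays of one culture number mostly deviated together (median r 0.62 over 28 pairs of groups). The dye term removes what arrays of one culture number share, so p-values measure the spread between cultures that is left after it. With 2 arrays a group, their number limits the precision. The fit was tested on simulated data.

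Values in every array are given for the ATPase genes, for genes called in the depletion effect at 20 or 30 min, and for the highest and lowest gene of each complex at 30 min. Genes named besides these, from the other comparisons, were named after their values were seen. The members and gene lists were chosen with earlier results of these data known. Alternatives covered the dye term, a culture block within strain, the normalization, the background correction, a filter on dim probes, array weights, the arrays fitted and each array left out. The removal of both Mot1-aa 10 min arrays, and of both 0 min arrays of culture 1, was chosen after seeing the data. Genes are given by symbol and locus tag without coordinates, since the deposited tables name no genome build.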

Additional observations from a re-analysis of the deposited data

Results flagged for a closer look

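Of the remodeller genes, 8 moved differently after rapamycin in Mot1-aa and in WT-aa, which for each rests on the test of that difference itself (limma, adjusted over 5315 genes). At 30 min 15.4% of the remodeller genes were called, against 21.1% of all genes, and at 20 min 3.85% against 8.09%. The remodeller genes were thus called no more often than the genes at large. At 20 min the difference of the changes, Mot1-aa minus WT-aa, was 0.46 for SNF11 and -0.73 for IES5. At 30 min it was 0.62 for SNF11, 0.65 for ITC1 and 0.58 for IES6, all higher in Mot1-aa. It was -0.73 for IES5, -0.52 for RVB1, -0.51 for RSC2, -0.50 for ARP7 and -0.34 for RSC1, all lower in Mot1-aa. The same sign was seen within culture 1 and within culture 2 for these 8 genes at 30 min. The fitted effect combines both cultures, so a called gene was likely to have it, and this is no separate support. Of all genes, 74.1% had the same sign in both cultures at 30 min.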

How the results depend on the processing

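Counts below are remodeller genes called, in the depletion effect unless Mot1-aa against its own 0 min is named. As reported they were 0, 2 and 8 at 10, 20 and 30 min for the effect and 1, 8 and 17 for Mot1-aa. The share of all genes called under each alternative is not given here. A changed count is therefore not a result about the remodeller genes in particular. No called depletion effect changed sign under an alternative run. Called falls of Mot1-aa at 30 min against its own 0 min did so under external-control scaling. There RSC1, RSC2, RSC6, RSC8, LDB7, ARP4, SWC5 and CHD1 had positive values, between 0.04 (ARP4) and 0.20 (RSC6). SNF6, STH1, IES5, ARP7 and RVB1 kept a negative sign. The culture numbers share a column with the dye: over the 28 pairs of groups the deviations of same-numbered arrays had a median r of 0.62 (range -0.356 to 0.777, 25 over 0.1). Same-numbered arrays thus mostly deviated together, but not in every pair, and the labels name no shared day or batch. With no replicate block (no dye term) the counts were 0 at 20 min and 1 at 30 min, and 0, 3 and 10 in Mot1-aa; the cause was not tested. The replicate block within strain changed no call. Under external-control scaling the effect had 0 calls at 20 and 30 min and Mot1-aa 0, 1 and 3; the control spots lay only 1.15 to 1.50 times over background, and all genes shifted by 0.27 at 30 min. Median centring gave 1 at 20 min, and 0 in Mot1-aa at 10 min, as did normexp with offset 0. The authors' ratios gave 1 at 20 min and 9 at 30 min, with 6 of the 8 kept, RSC1 and RVB1 lost, and SNF6, LDB7 and SWC5 added; array weights gave 6 at 20 min and 0 in Mot1-aa at 10 min, where the fit of only the 8 arrays compared also gave 0; that fit was not run for the strains at 0 min. Without both Mot1-aa 10 min arrays, which had the lowest array weights (0.148), the counts were 8 at 20 min, 18 at 30 min, 14 in Mot1-aa at 20 min and 5 between the strains at 0 min. Without both 0 min arrays of culture 1 they were 0 at 20 min and 3 at 30 min (the rises alone), and 0, 4 and 11 in Mot1-aa. Leaving out single arrays gave 0 to 8 at 20 min, 4 to 18 at 30 min, 0 to 13, 3 to 14 and 8 to 24 in Mot1-aa, 0 to 5 between the strains at 0 min, and 0 to 0 in the other comparisons. At 20 min the count was 8 without either Mot1-aa 10 min array, and fell to 0 on leaving out either 20 min array of that strain, culture 2 of WT-aa at 20 min, or culture 1 of WT-aa at 0 min. It was 1 on leaving out culture 1 of Mot1-aa at 0 min, culture 1 of WT-aa at 20 min, or any WT-aa array of 10 or 30 min. In Mot1-aa at 10 min it was 13 and 4 without culture 1 and culture 2 of that group, and 0 without either Mot1-aa 0 min array or any WT-aa array after 0 min. In Mot1-aa at 20 min it was 14 without either 10 min array, 4 and 3 without culture 1 and culture 2 of that group, and 4 when culture 1 of Mot1-aa at 0 min was dropped. Calls of SWC3 and SWC7 are limited by their signal near background.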
